A study of Homo sapiens with 28 samples.

Results

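The genes described here are 43 genes of the hypoxia response and of glycolysis. This list of names was chosen for this purpose with earlier results of these data known. Counts of members set beside shares of all genes are therefore no test of a list fixed beforehand. All 43 genes were found by gene name among the 58219 genes of the table. They were followed through 28 libraries of poly(A) RNA from H9, an established human embryonic stem cell line, that was either wild type for the transcription factor SOX1 (WT) or SOX1-/- (KO). Cells were collected undifferentiated on day 0 (ES) and as neural progenitor cells on days 4 and 8 of neural differentiation, in cultures labelled IWP2, CT0.4 or CT1.0. The compound IWP2 blocks the secretion of WNT proteins; the labels do not say what CT stands for and give its number without a unit. Each of the 14 groups of genotype, culture and day holds 2 libraries, with the numbers 1 and 2 (WT) or 26 and 48 (KO), and the numbers are treated here as 2 lines per genotype. The sources used here do not say whether these are separate lines or cultures, nor how SOX1 was disrupted. The series was made to ask what SOX1 does early in neural differentiation.

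Cells sense oxygen through HIF, a transcription factor whose alpha subunit is hydroxylated by the EGLN enzymes when oxygen is present and is then marked by VHL for destruction. When oxygen is short, or when this brake is lifted in another way, HIF with its partner ARNT raises the genes of glucose uptake, glycolysis, lactate export, mitochondrial turnover and blood vessel growth, so that cells make energy with less respiration. Pluripotent stem cells are known for a high rate of glycolysis even in oxygen, which falls as they become neural.

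HIF binds short sites in and near the genes it controls, so promoters are shown first, as sequence background. The list was chosen by names of the hypoxia response and glycolysis, with earlier results of these data known. Its share of matches is thus no test of the changes described below. Windows of 250 bases before an annotated start site were read from RefSeq (GRCh38.p14) for 39 members; BNIP3L, NDRG1, SLC2A3 and VEGFA had none in the table. The letters ACGTG, a core form of the hypoxia response element, were searched on both strands, and a match on both strands of the palindrome CACGTG was counted as 1 site. They were present in 32 of the 66 member windows (48.5%) and in 6501 of all 35116 windows of the same length (18.5%). Counted by gene, 28 of 39 members (71.8%) and 5935 of all 27305 genes (21.7%) had a match in at least 1 window. Of the 28 members with a window that were called higher in KO in both CT cultures on day 4, 21 had a match (75%), and of the other 11 members 7 had one (63.6%). The core form beginning with G was not searched. A match is a run of letters and not a measured binding site. 4 windows are given from 5′ to 3′ with matches in capitals, together with the whole palindrome where a match lies in it. BHLHE40 (chr3:4979187-4979436, plus strand) has 3 matches, at 245, 174 and 149 bases before the start site, and was among the members with the largest changes. BNIP3 (chr10:131981924-131982173, minus strand) has 1, at 134 bases. It was called lower in KO in ES and higher in both CT cultures on day 4 and in CT1.0 on day 8. P4HA1 (chr10:73096867-73097116, minus strand) has 1, at 86 bases, and was called in the same 4 cultures in the same directions. PFKFB4 (chr3:48556804-48557053, minus strand) changed as much as these with no ACGTG match in its window, which does hold the unsearched form GCGTG.
BHLHE40: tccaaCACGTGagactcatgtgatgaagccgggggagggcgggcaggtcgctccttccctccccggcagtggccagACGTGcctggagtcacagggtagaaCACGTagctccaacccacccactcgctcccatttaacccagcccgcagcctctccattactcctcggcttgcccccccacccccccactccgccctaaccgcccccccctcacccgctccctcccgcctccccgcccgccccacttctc
BNIP3: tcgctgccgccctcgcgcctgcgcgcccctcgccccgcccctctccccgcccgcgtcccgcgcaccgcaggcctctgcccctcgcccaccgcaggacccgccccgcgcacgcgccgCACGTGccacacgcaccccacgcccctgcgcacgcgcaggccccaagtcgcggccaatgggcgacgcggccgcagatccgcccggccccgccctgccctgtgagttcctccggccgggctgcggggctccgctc
P4HA1: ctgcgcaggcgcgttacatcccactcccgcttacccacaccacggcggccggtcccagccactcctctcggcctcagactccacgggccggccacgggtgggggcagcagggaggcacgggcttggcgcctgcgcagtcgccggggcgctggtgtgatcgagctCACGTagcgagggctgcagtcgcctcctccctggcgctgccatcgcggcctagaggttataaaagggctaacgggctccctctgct
PFKFB4: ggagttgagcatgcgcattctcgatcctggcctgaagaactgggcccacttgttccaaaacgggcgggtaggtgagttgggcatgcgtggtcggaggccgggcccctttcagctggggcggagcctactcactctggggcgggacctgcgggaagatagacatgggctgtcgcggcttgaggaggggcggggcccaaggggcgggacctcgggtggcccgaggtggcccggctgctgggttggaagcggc

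Values are TPM, a measure of transcript abundance that is scaled for gene length and to a fixed total, and pairs of values are always the first and the second line (1 then 2, 26 then 48). Differences are log2 fold changes on the log2(TPM + 1) scale, which understates the change of low genes, fitted with limma over 27912 genes, and a gene was called at an adjusted p under 0.05. All 43 members passed the filter of 1 TPM in 2 libraries. The p-values measure only the spread between these libraries, which may be technical, and TPM keeps no read depth. In the ES libraries POU5F1 lay between 2399 and 2532 TPM, SOX2 was present in all 28 libraries at 95.1 to 451 TPM, and PAX6, a marker of neural progenitors, at 353 and 406 TPM in WT CT0.4 on day 8, was at 8.13 and 5.47 TPM in WT CT1.0 on day 4. SOX1 stood at 84.1 and 98 TPM in WT CT1.0 on day 4 and at 0.705 and 3.08 in KO, and in IWP2 on day 4 at 0.907 and 0.99 in WT and 0.41 and 1.14 in KO, where it cannot check the labels. The 4 WT day 4 CT libraries stood apart: they had 17694 to 18233 genes at 1 TPM or more, against 18876 to 20338 in the other 24, and 94.1% to 94.8% of their TPM was in protein-coding genes, against 92.3% to 93.9%. Every KO against WT result in CT on day 4 rests on them, and differences that do not use their values are given beside it. The reported calls come from fits over all 28 libraries, so the spread behind them includes these 4. The labels name a pair of sequencing platforms without saying which library was run on which, so a platform effect and the groups cannot be told apart. In bulk RNA, fewer cells of a type and less RNA per cell cannot be told apart.

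The summed level of the 43 genes was highest in WT ES cells and in KO CT1.0 cultures on day 4. Its share of TPM was 1.16% to 1.46% in WT ES cells, 1.01% to 1.02% in KO ES cells, 1.03% to 1.04% in KO CT0.4 on day 4, 0.706% to 0.716% in WT IWP2 on day 4, 0.968% to 0.982% in WT CT1.0 on day 4 and 1.24% to 1.46% in KO CT1.0 on day 4. Among the 12 groups of days 4 and 8, 27 members had their highest mean in KO CT1.0 on day 4 and 6 in KO CT0.4 on day 4. With the ES groups counted, 19 members were highest in KO CT1.0 on day 4 and 10 in WT ES, while 15 were lowest in WT CT0.4 on day 4 and 9 in KO ES. The heat map of all members shows these blocks.

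**Figure D1:**
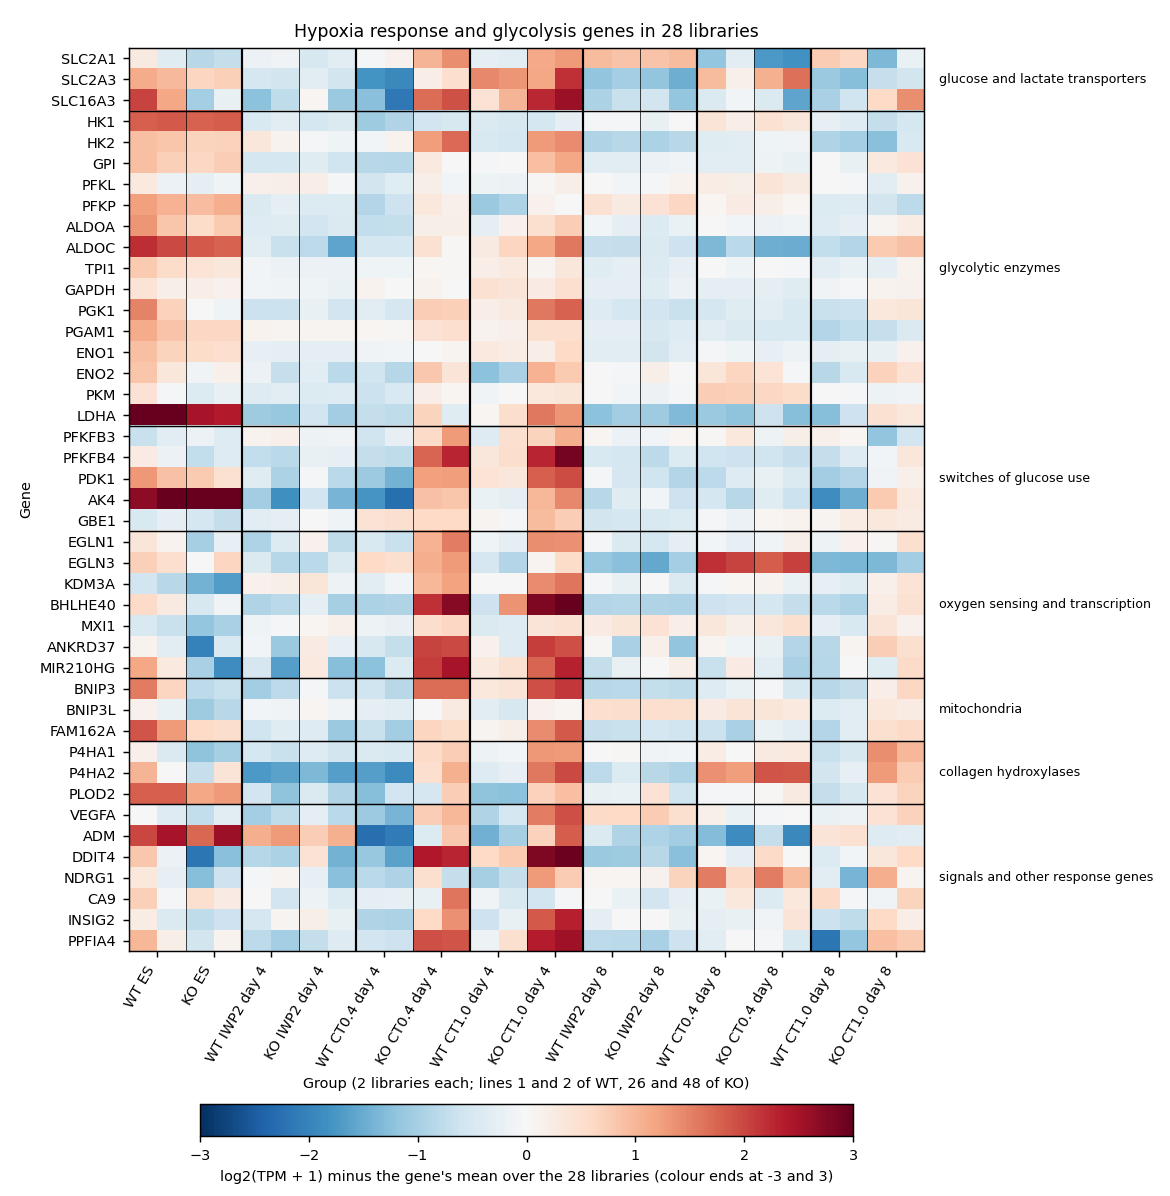
Level of each of the 43 genes (rows, grouped by role) in 28 libraries (columns, 2 per group), as log2(TPM + 1) minus the gene's mean over the 28 libraries. Red blocks stand in the ES columns, mainly for glycolytic enzymes, and in the KO CT0.4 and KO CT1.0 columns of day 4 across the roles.

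In undifferentiated cells the members tended to be lower in KO than in WT. Both KO libraries lay below both WT libraries for 31 of 43 members, against 16.5% of all genes tested, and the median log2 difference was -0.52, against 0 over all genes. 4 members were called lower and none higher (background: 0.168% called lower). BNIP3, a receptor that sends mitochondria to be digested, had 143 and 75.3 TPM in WT and 27.4 and 29.7 in KO. The groups did not overlap, WT line 1 stood far above WT line 2, and the log2 difference was -1.83 (SE 0.24, adjusted p = 0.0012). PGK1, the enzyme of the first ATP-yielding step of glycolysis, was at 257 and 231 TPM in KO and 714 and 411 in WT (log2 -1.15, SE 0.17, adjusted p = 0.00509). P4HA1, a subunit of the enzyme that hydroxylates collagen prolines, differed by -0.97 (SE 0.16, adjusted p = 0.00947) and BNIP3L, the relative of BNIP3, by -0.92 (SE 0.11, adjusted p = 0.00069). SLC16A3, the exporter of lactate, at 43.4 and 23.1 TPM in WT and 4.33 and 8.24 in KO, and DDIT4, an inhibitor of mTOR signalling, at 165 and 82.8 in WT and 20.1 and 39.2 in KO, had wider gaps but did not pass the test (adjusted p = 0.0586 and 0.0662). The uncalled members of highest level were GAPDH, ENO1 and ALDOA, with log2 differences of -0.13, -0.24 and -0.42. This result leans on 1 library: WT line 1 was above WT line 2 in 38 of 43 members, by a median of 0.40 on the log2 scale, while it was higher in 44.6% of all genes tested, and without that line no member was called. Without KO line 26 1 member was called.

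In WT cells many members were lower on day 4 than in ES cells. In WT IWP2 cultures 31 members fell and 2 rose against WT ES (background: 14.9% called lower and 20.3% higher), in CT0.4 32 fell and 3 rose (17.7% and 12.2%), and in CT1.0 20 fell and 2 rose (20.8% and 10.2%). These comparisons share the WT ES libraries. LDHA, which turns pyruvate into lactate, fell most in IWP2, from 892 and 659 TPM in ES to 35 and 33 (log2 -4.46, SE 0.29, adjusted p = 3.3e-09). AK4, a mitochondrial adenylate kinase, fell from 53.9 and 67.5 to 3.19 and 1.41 TPM (log2 -4.27). ALDOC, an aldolase of brain, fell from 106 and 89.7 to 17.2 and 13.4 TPM, and PLOD2, a lysyl hydroxylase of collagen, from 27.4 and 27.3 to 4.55 and 2.54. SLC16A3 went from 43.4 and 23.1 to 3.64 and 5.42 TPM and HK1, the hexokinase of most tissues, from 125 and 129 to 25.4 and 27.7. In all 6 the ES and day 4 libraries did not overlap. KDM3A, a histone demethylase, and MXI1, an antagonist of MYC, went against the trend, at log2 0.86 and 0.48. Without WT line 1, 21, 22 and 14 members were called in IWP2, CT0.4 and CT1.0.

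In KO cells the counts for the same step differed between the cultures. Against KO ES, KO IWP2 cells had 19 members lower and 6 higher (background: 15.3% and 19.4%), KO CT0.4 cells 11 lower and 23 higher (16.9% and 19.4%), and KO CT1.0 cells 4 lower and 29 higher (18.4% and 20%), with the KO ES libraries shared among them. In KO CT1.0 the 4 lower members were HK1, AK4, LDHA and PFKP, with log2 changes of -2.21, -1.81, -0.98 and -0.94. DDIT4 rose from 20.1 and 39.2 TPM in KO ES to 663 and 731 (log2 4.58, SE 0.44, adjusted p = 3e-07), ANKRD37, an ankyrin repeat protein, from 0.492 and 3.42 to 24.8 and 22.5, and KDM3A from 17.5 and 14.3 to 129.5 and 149. The TPM values and log2 changes here make no use of any WT library. The SE, adjusted p and calls do, since the spread was fitted over all 28 libraries. In a fit without the 4 WT day 4 CT libraries, 23 of 25, 34 of 34 and 32 of 33 calls were kept in KO IWP2, CT0.4 and CT1.0. Both KO ES libraries lay below both WT ES libraries for 31 members, against 16.5% of all genes tested. The starting points of the genotypes may therefore differ, although the ES result leans on WT line 1.

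On day 4 KO and WT differed in CT0.4 and CT1.0 cultures and were not told apart in IWP2. In IWP2 no member was called (background: 0.043% in either direction), 3 had an unadjusted p under 0.05 in limma, and the median log2 difference was 0.07. In CT0.4 32 members were higher in KO and 0 lower (background: 3.67% called higher), with a median of 1.17 against 0.13 over all genes. In CT1.0 36 were higher and 0 lower (background: 12.4%), with a median of 1.47 against 0.19. Both KO libraries stood above both WT libraries for 42 members in CT0.4 and 37 in CT1.0, against 33.7% and 41.1% of all genes tested. 30 members were called in both cultures, which share no library but come from the same 4 lines. HK1 and SLC2A3 were called in CT0.4 alone, ALDOC, EGLN3, GBE1, LDHA, NDRG1 and PLOD2 in CT1.0 alone, and CA9, ENO1, GAPDH, PFKL and TPI1 in neither. Median-ratio scaling, which takes out the shift of all genes, left 29 and 30 of these calls. The plot of KO against WT differences sets the 7 cultures side by side.

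**Figure D2:**
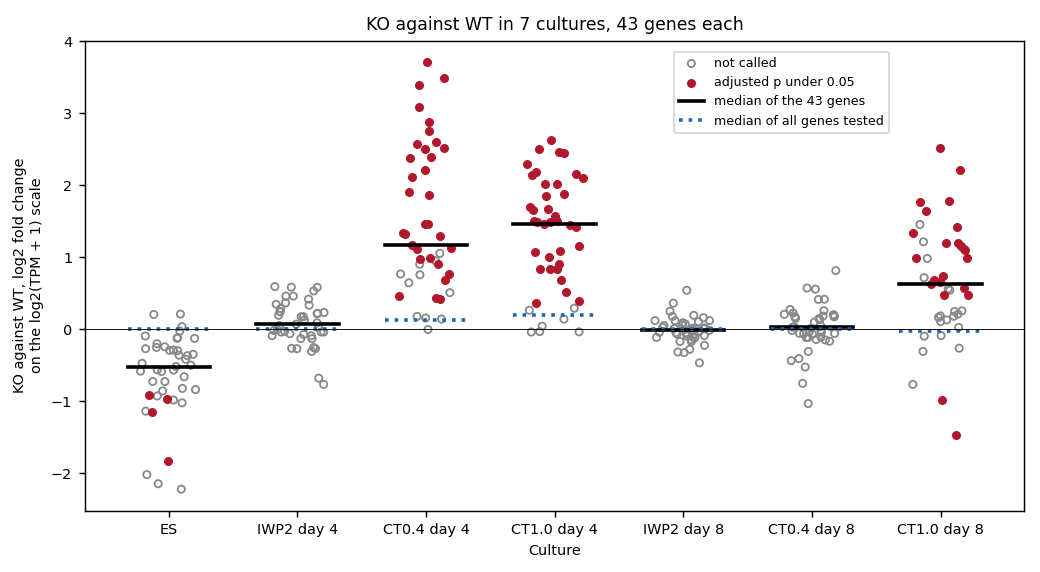
KO against WT log2 fold change (vertical axis, log2(TPM + 1) scale) of each of the 43 genes in 7 cultures, filled where called, with the median of the 43 genes (solid line) and of all genes tested (dotted line). The medians are -0.52 in ES, 1.17 and 1.47 in CT0.4 and CT1.0 on day 4 and 0.62 in CT1.0 on day 8, and lie near 0 in the other 3 cultures.

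Among the transporters, SLC2A1, the glucose carrier of most cells, stood at 255 and 295 TPM in WT and 541 and 708 in KO in CT0.4, and at 221 and 216 in WT and 587 and 645 in KO in CT1.0. KO was higher in both, by 1.17 (SE 0.29, adjusted p = 0.0313) and 1.49 (SE 0.29, adjusted p = 0.0024) on the log2 scale. SLC2A3, the high-affinity glucose carrier known from neurons, behaved differently: it was 32.6 and 29.7 TPM in WT and 133 and 164 in KO in CT0.4 (log2 2.21, SE 0.27, adjusted p = 0.000309), but 318 and 289.9 in WT and 259 and 535 in KO in CT1.0, where the groups overlapped. SLC16A3 rose from 3.57 and 1.45 to 33.6 and 39.9 TPM in CT0.4 and from 13.5 and 21 to 50.9 and 63.7 in CT1.0, with no overlap (log2 3.49, SE 0.46, adjusted p = 0.000525, and 1.7, SE 0.46, adjusted p = 0.0199).

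Of the 15 glycolytic enzymes, 9 were higher in KO in CT0.4 and 10 in CT1.0 (background: 3.67% and 12.4%). The size of the change was uneven along the pathway. HK2, the inducible hexokinase, had 24.1 and 27.4 TPM in WT and 61.8 and 84.2 in KO in CT0.4, and 18.1 and 17.3 in WT and 63.3 and 69.4 in KO in CT1.0 (log2 1.45, SE 0.18, adjusted p = 0.000332, and 1.85, SE 0.18, adjusted p = 1.45e-05). ENO2, the neuronal enolase, had 36.8 and 44.7 TPM in WT and 183 and 152 in KO in CT1.0 (log2 2.02, SE 0.23, adjusted p = 3.84e-05). PGK1 had 293 and 304 TPM in WT and 764 and 864 in KO there (log2 1.44, SE 0.17, adjusted p = 5.25e-05). In each of these 3 the KO libraries lay well above the WT ones. GPI and PFKP, the isomerase and a phosphofructokinase at the top of the pathway, rose by 0.97 and 0.98 in CT0.4 and by 1.07 and 1.08 in CT1.0. ALDOA, PKM and PGAM1 changed less, by 0.68, 0.39 and 0.37 in CT1.0. The abundant enzymes GAPDH, ENO1 and TPI1 did not pass the test: GAPDH was 4189 and 4016 TPM in WT and 3661 and 4369 in KO in CT1.0 (log2 -0.04), ENO1 differed by 0.14 and TPI1 by -0.03. LDHA, at 44.8 and 43 TPM in WT and 119 and 57.4 in KO in CT0.4 (adjusted p = 0.0922), was called in CT1.0, at 77 and 107 in WT and 223 and 187 in KO (log2 1.16, SE 0.29, adjusted p = 0.0129). Even there KO stayed far under the 388 to 418 TPM of KO ES cells.

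The enzymes that steer the use of glucose and of ATP included some of the largest changes. PFKFB4, which makes the sugar bisphosphate that activates phosphofructokinase, rose from 10.3 and 10 TPM in WT to 61.6 and 89 in KO in CT0.4, and from 22.3 and 25.8 to 89.1 and 135 in CT1.0 (log2 2.75, SE 0.22, adjusted p = 4.95e-06, and 2.15, SE 0.22, adjusted p = 1.69e-05). PDK1, the kinase that closes pyruvate dehydrogenase and so keeps pyruvate out of mitochondria, had 4.79 and 3.57 TPM in WT and 27.9 and 28.1 in KO in CT0.4, and 15.4 and 14.6 in WT and 41.8 and 46.8 in KO in CT1.0 (log2 2.50, SE 0.25, adjusted p = 6.69e-05, and 1.5, SE 0.25, adjusted p = 0.000924). AK4 had 1.52 and 0.794 TPM in WT and 14.9 and 14.2 in KO in CT0.4, and 6.45 and 6.11 in WT and 16.2 and 22.5 in KO in CT1.0 (log2 2.87, SE 0.31, adjusted p = 0.000141, and 1.47, SE 0.31, adjusted p = 0.0045). All 3 had groups that did not overlap in either culture. PFKFB3, the relative of PFKFB4, changed by 1.34 and 0.83, the second close to the threshold (adjusted p = 0.0499). GBE1, the glycogen branching enzyme, was called in CT1.0 at 0.84 and not in CT0.4 at 0.14.

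Of 7 members that act in oxygen sensing and transcription, 6 were higher in KO in CT0.4 and all 7 in CT1.0 (background: 3.67% and 12.4%). BHLHE40, a repressor of transcription, was barely detected in WT CT0.4, with 0.0207 and 0.0548 TPM, and stood at 8.05 and 12.2 in KO (log2 3.40, SE 0.42, adjusted p = 0.000309). In CT1.0 the WT lines differed from each other, at 0.294 and 4.03 TPM, and both lay below the KO lines at 12.8 and 17.1 (log2 2.63, SE 0.42, adjusted p = 0.000552). MIR210HG, the host transcript of a microRNA known from hypoxia, had 7.47 and 14 TPM in WT and 82.8 and 109 in KO in CT0.4 (log2 3.09, SE 0.54, adjusted p = 0.00406). Its CT1.0 call, from 23.5 and 26.3 to 65.3 and 98.3 TPM, was at the threshold (adjusted p = 0.049). EGLN1, the main oxygen-sensing hydroxylase and itself a HIF target, rose from 7.67 and 6.39 to 23.5 and 33.5 TPM and from 9.78 and 8.79 to 29.9 and 29.4. ANKRD37 had 3.37 and 2.73 TPM in WT and 24 and 23 in KO in CT0.4, and 5.66 and 3.63 in WT and 24.8 and 22.5 in KO in CT1.0. KDM3A and MXI1 rose by 1.30 and 0.77 in CT0.4 and by 1.5 and 0.84 in CT1.0.

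The 3 mitochondrial members were called higher in KO in both cultures (background: 3.67% in CT0.4 and 12.4% in CT1.0). BNIP3 stood at 30.9 and 26.5 TPM in WT and 154 and 154 in KO in CT0.4, and at 59.1 and 62.9 in WT and 183 and 210.0 in KO in CT1.0 (log2 2.39, SE 0.24, adjusted p = 5.97e-05, and 1.67, SE 0.24, adjusted p = 0.000244). FAM162A, a mitochondrial protein induced in hypoxia, rose by 1.46 and 1.49, and BNIP3L by 0.44 and 0.51. Mitochondrially encoded transcripts made up 5.92% to 6.30% of TPM in KO and 6.90% to 7.26% in WT in CT0.4, and 4.81% to 4.96% against 7.26% to 7.31% in CT1.0; their part in the result was not tested.

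Collagen-modifying enzymes need oxygen as a substrate and are known HIF targets. P4HA1 had 34.3 and 36.2 TPM in WT and 96.9 and 94.2 in KO in CT1.0 (log2 1.41, SE 0.16, adjusted p = 3.34e-05), and P4HA2 had 4.69 and 5.28 in WT and 21.3 and 28.3 in KO (log2 2.10, SE 0.33, adjusted p = 0.000509). In CT0.4 they changed by 1.11 and 2.57. Among them PLOD2 was called in CT1.0, at 2.56 and 2.52 TPM in WT and 12.3 and 14.3 in KO, and not in CT0.4, where the KO lines differed at 4.83 and 12.7.

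The signals and remaining response genes held the largest CT0.4 change of the list. DDIT4 stood at 42.4 and 30.6 TPM in WT and 501 and 465 in KO in CT0.4 (log2 3.71, SE 0.44, adjusted p = 0.000259), and at 143 and 163 in WT and 663 and 731 in KO in CT1.0 (log2 2.18, SE 0.44, adjusted p = 0.00303). VEGFA, the growth factor of blood vessels, had 17.4 and 14 TPM in WT and 64.3 and 77.6 in KO in CT0.4, and 20.1 and 26.1 in WT and 113 and 149 in KO in CT1.0 (log2 2.11, SE 0.21, adjusted p = 5.6e-05, and 2.45, SE 0.21, adjusted p = 4.82e-06). Both genes had KO libraries far above WT. INSIG2, a regulator of sterol synthesis, had 13 and 17.7 TPM in WT and 76.1 and 108 in KO in CT1.0 (log2 2.50, SE 0.28, adjusted p = 3.56e-05), and PPFIA4, a liprin, had 11.5 and 18.4 in WT and 70.4 and 80.4 in KO (log2 2.29, SE 0.31, adjusted p = 0.00018). ADM, the vasodilating peptide adrenomedullin, had 1.07 and 1.84 TPM in WT and 8.07 and 18.8 in KO there (log2 2.46, SE 0.44, adjusted p = 0.00131), and KO line 48 was far above line 26. The KO CT1.0 libraries overlapped those of KO IWP2, at 8.5 and 10.9 TPM, while WT stood at 11 and 12.7 TPM in IWP2 and at 0.174 and 0.321 in CT0.4. NDRG1 was called in CT1.0 at 1.88 and not in CT0.4 at 0.75. CA9, a carbonic anhydrase often used as a hypoxia marker, was at 0.0632 to 3.82 TPM over all 28 libraries and was called in none of the 7 cultures; its highest value, in KO CT0.4 on day 4, came from line 48 alone, with line 26 at 0.359.

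6 members are followed through the remaining groups to show how widely such genes ranged. BNIP3 was at 22.4 and 27.3 TPM in WT IWP2 on day 4, and on day 8 at 26.2 and 26.7 in WT IWP2, 28.6 and 27.7 in KO IWP2, 36.4 and 41.5 in WT CT0.4, 46.2 and 34 in KO CT0.4, 26.2 and 28.5 in WT CT1.0 and 54.7 and 74.3 in KO CT1.0. PDK1 was at 29.3 and 21.6 TPM in WT ES and 20.1 and 15.8 in KO ES, 8.62 and 5.34 in WT and 10.9 and 6.04 in KO in IWP2 on day 4, 10.9 and 7.71 in WT and 7.09 and 5.72 in KO in IWP2 on day 8, 6.08 and 8.44 in WT and 9.52 and 8.06 in KO in CT0.4 on day 8, and 4.92 and 5.67 in WT and 10.4 and 12.6 in KO in CT1.0 on day 8. For both genes KO against WT was called on day 8 in CT1.0 and not in IWP2 or CT0.4. VEGFA was at 38.6 and 29.1 TPM in WT ES and 22.5 and 29.8 in KO ES, and on day 8 at 65.2 and 54.2 in KO IWP2, 36.4 and 37.7 in KO CT0.4, 33 and 34.4 in WT CT1.0 and 51.8 and 62.4 in KO CT1.0. SLC2A1 was at 321 and 207 TPM in WT ES and 149 and 162 in KO ES, and at 237 and 249.6 in WT IWP2 and 191 and 212 in KO IWP2 on day 4. LDHA was at 418 and 388 TPM in KO ES, 49.2 and 35.4 in KO IWP2 on day 4, and on day 8 at 34.9 and 29.2 in KO IWP2, 47.8 and 29.7 in KO CT0.4 and 102 and 92.4 in KO CT1.0. CA9 was at 1.61 and 0.515 TPM in WT ES, 1.2 and 0.884 in KO ES, 0.468 and 0.156 in WT CT1.0 on day 4 and 0.0632 and 0.51 in KO CT1.0 on day 4, with overlap in each pair. LDHA thus set ES cells apart from all differentiated cultures, which VEGFA and SLC2A1 did not.

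**Figure D3:**
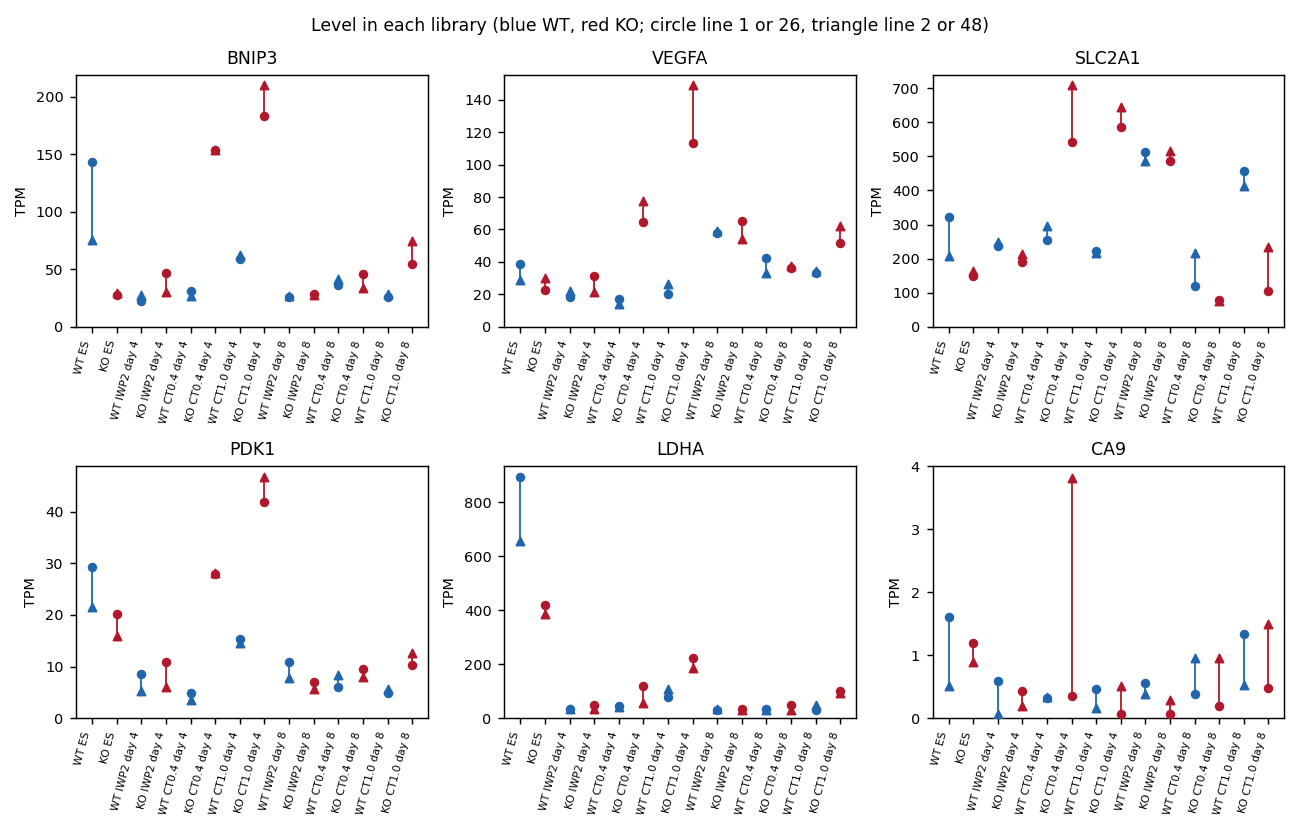
TPM of 6 of the 43 genes in each library (vertical axis, from 0) by group, WT in blue and KO in red, with a circle for line 1 or 26 and a triangle for line 2 or 48. BNIP3, VEGFA and PDK1 are highest in KO CT1.0 on day 4, LDHA is highest in ES, and CA9 stays under 4 TPM. SLC2A1 is high in KO CT cultures on day 4, and low on day 8 in KO CT cultures and in WT CT0.4.

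A direct test of whether the KO difference was larger in CT than in IWP2 on day 4 called 23 members for CT0.4 (background: 1.27% called higher) and 21 for CT1.0 (background: 4.41%), all upward. These tests share the IWP2 libraries. HK2, PFKFB4 and VEGFA differed by 1.76 (SE 0.26, adjusted p = 0.00389), 2.22 (SE 0.31, adjusted p = 0.003) and 1.78 (SE 0.29, adjusted p = 0.00832) for CT0.4, and by 2.16, 1.62 and 2.12 for CT1.0. BNIP3, PDK1 and DDIT4 were called for CT0.4 and not for CT1.0, where they differed by 1.09, 1.27 and 1.76 (adjusted p = 0.0717, 0.0512 and 0.111). With any 1 of the 4 lines left out, no member kept its call throughout in either test: without WT line 1, WT line 2, KO line 26 and KO line 48 the counts were 1, 3, 10 and 3 for CT0.4 and 2, 8, 11 and 8 for CT1.0.

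Differences between KO cultures do not involve the values of the WT day 4 CT libraries, although the spread was fitted over all 28 libraries. Against KO IWP2, 31 members were higher in KO CT0.4 (background: 2.28%) and 37 in KO CT1.0 (background: 5.27%), and 0 were lower in either. In a fit without the 4 WT day 4 CT libraries, 28 of the 31 and 37 of the 37 calls were kept. Both comparisons, added after the data were seen, share the KO IWP2 libraries, and both share the KO CT libraries with the KO against WT results. BNIP3 was at 46.7 and 30.2 TPM in KO IWP2, 154 and 154 in KO CT0.4 and 183 and 210.0 in KO CT1.0, and VEGFA at 31.2 and 21.3 TPM in KO IWP2, 64.3 and 77.6 in KO CT0.4 and 113 and 149 in KO CT1.0, with no overlap between IWP2 and either CT culture. Without KO line 48, 6 members were called in CT0.4 and 23 in CT1.0, and without KO line 26, 19 in CT0.4. DDIT4 in KO IWP2 shows how far lines could differ, at 128 and 35 TPM.

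Among WT cultures of day 4, CT1.0 differed from IWP2 in more members than CT0.4 did. WT CT1.0 had 17 members higher and 4 lower than WT IWP2 on day 4 (background: 2.82% and 17.2%). WT CT0.4 had 2 higher and 5 lower (2.45% and 10.6%), with the WT IWP2 libraries shared. The members called lower, 9.3% of the list in CT1.0 and 11.6% in CT0.4, lay below and near the background share. The CT values here are those of the 4 libraries that stood apart. SLC2A3 rose from 81.6 and 79.1 TPM in WT IWP2 to 318 and 289.9 in CT1.0 (log2 1.91, SE 0.27, adjusted p = 0.00011) and fell to 32.6 and 29.7 in CT0.4 (log2 -1.34, SE 0.27, adjusted p = 0.00294). SLC16A3, DDIT4, LDHA and P4HA2 rose in CT1.0 by 1.71, 1.59, 1.39 and 1.35. ADM fell in both, by 2.40 in CT1.0 and 3.36 in CT0.4 on the log2 scale. In CT0.4 only EGLN3 and GBE1 were higher, by 1.18 and 0.75. Without WT line 1 the counts of called members were 4 for CT1.0 and 0 for CT0.4, and without WT line 2 they were 4 and 1.

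By day 8 the KO difference was called in CT1.0 and in neither other culture. In IWP2 no member was called (background: 0.0609%), and none had an unadjusted p under 0.05 in limma. In CT0.4 none was called either (background: 0.416%), 3 had an unadjusted p under 0.05, and the median log2 difference was 0.03. In CT1.0 21 members were higher in KO and 2 lower (background: 4.34% called higher and 9.96% lower), with a median of 0.62 against -0.02 over all genes. Of the 30 members called in both CT cultures on day 4, 18 were also called higher here. PPFIA4 had 2.12 and 5.3 TPM in WT and 25.3 and 23.2 in KO (log2 2.51, SE 0.31, adjusted p = 0.000119), and AK4 had 1.36 and 2.11 in WT and 13.9 and 9.64 in KO (log2 2.22, SE 0.31, adjusted p = 0.000281). P4HA1 had 23.7 and 27.6 TPM in WT and 103 and 77.4 in KO (log2 1.76, SE 0.16, adjusted p = 9.05e-06), and its KO libraries lay on both sides of those of day 4. In these 3 the groups were well apart. ALDOC had 12.7 and 11.6 TPM in WT and 38.9 and 41 in KO (log2 1.64, SE 0.23, adjusted p = 0.000314), and P4HA2 4.12 and 5.27 in WT and 17.1 and 11.7 in KO. SLC16A3, LDHA and BNIP3 rose by 1.78, 1.33 and 1.19. Members of the day 4 response that were not called here include HK2 (0.11), EGLN1 (0.25), DDIT4 (0.71) and PKM (-0.10).

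SLC2A1 and PFKFB3 were the exceptions, lower in KO CT1.0 on day 8. SLC2A1 stood at 456 and 414 TPM in WT and 105 and 234 in KO, and both KO lines were below both WT lines although they differed from each other (log2 -1.47, SE 0.29, adjusted p = 0.00296). PFKFB3 had 29 and 27.2 TPM in WT and 11 and 17.2 in KO (log2 -0.98, SE 0.27, adjusted p = 0.0227). Day 8 calls depended on single lines: without WT line 1, WT line 2 and KO line 26 the counts were 5, 9 and 9, and AK4, ALDOC, P4HA1 and PPFIA4 were the 4 that kept their calls without each line. For SLC2A1 the KO effect in CT1.0 against IWP2 on day 8 was -1.47 (SE 0.41, adjusted p = 0.0584). That test called 7 members, all upward (background: 0.91% called higher), namely BNIP3L, PGK1, PDK1, ALDOC, P4HA1, AK4 and PPFIA4, and 0 for CT0.4 (background: 0.147%), where 2 had an unadjusted p under 0.05. The mitochondrially encoded share of TPM was 5.94% to 6.02% in KO CT1.0 on day 8 and 7.20% to 7.29% in WT; its part in the result was not tested.

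Between day 4 and day 8 the WT cultures went different ways. From day 4 to day 8 WT CT0.4 had 18 members higher and 3 lower (background: 19.7% and 5.08%), WT IWP2 8 higher and 3 lower (8.97% and 4.85%), and WT CT1.0 3 higher and 15 lower (12.2% and 2.45%). VEGFA rose in IWP2 from 18.5 and 22.1 to 57.8 and 58.9 TPM (log2 1.48, SE 0.21, adjusted p = 0.000152) and in CT0.4 from 17.4 and 14 to 42.3 and 33.2. SLC2A3 fell in CT1.0 from 318 and 289.9 to 53.1 and 47.4 TPM (log2 -2.57, SE 0.27, adjusted p = 8.34e-06) and rose in CT0.4 from 32.6 and 29.7 to 224 and 129. ADM fell in IWP2 and rose in CT1.0 (-1.85 and 1.64). LDHA was at 30.9 and 35.3 TPM in IWP2, 34 and 31.5 in CT0.4 and 30.1 and 47.4 in CT1.0 on day 8. The day 4 values of WT CT0.4 and CT1.0 are those of the 4 libraries that stood apart. Without WT line 1 and WT line 2 the counts were 0 and 2 in IWP2, 11 and 9 in CT0.4 and 4 and 5 in CT1.0.

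In CT0.4 on day 8, EGLN3, P4HA2, SLC2A3, PKM, GBE1 and HK1 were called higher and SLC2A1 lower than in IWP2 in both genotypes, and EGLN3, P4HA2, SLC2A3 and SLC2A1 changed by at least 1 on the log2 scale in both. Against IWP2 of that day, WT CT0.4 had 6 members higher and 1 lower (background: 6.29% and 5.89%), and KO CT0.4 8 higher and 4 lower (8.61% and 7.89%). EGLN3, an oxygen-sensing hydroxylase, was 5.03 and 4.57 TPM in WT IWP2 and 59.1 and 52.3 in WT CT0.4, and 3.54 and 5.55 TPM in KO IWP2 and 45.2 and 54 in KO CT0.4 (log2 3.29, SE 0.23, adjusted p = 2.76e-08, and 3.21, SE 0.23, adjusted p = 2.67e-08). P4HA2 was 18.2 and 16.7 TPM in WT CT0.4 and 26.5 and 26.3 in KO CT0.4, from 3.29 and 4.58 in WT and 3.16 and 2.9 in KO in IWP2. The glucose carriers moved in opposite directions: SLC2A1 fell from 514 and 486 to 119 and 215 TPM in WT and from 487 and 517 to 80.1 and 75.3 in KO, while SLC2A3 rose from 50.3 and 56.9 to 224 and 129 and from 50.1 and 41.6 to 244 and 367. In these 4 genes the CT0.4 and IWP2 libraries of the same genotype did not overlap, and BNIP3, PDK1 and most others were not called. WT CT1.0 had 1 member higher and 7 lower than WT IWP2 (2.97% and 7.82%), led by AK4 at -1.07, BNIP3L at -0.88 and VEGFA at -0.78. KO CT1.0 had 18 higher and 4 lower than KO IWP2 (3.78% and 16.7%), with P4HA2 at 1.91 and SLC16A3 at 1.85 above and SLC2A1 at -1.67 and PFKP at -1.19 below. Without WT line 1 and WT line 2, 2 and 5 members were called in WT CT0.4, and 1 and 3 in WT CT1.0. Without KO lines 26 and 48, 5 and 7 members were called in KO CT0.4, and 13 and 11 in KO CT1.0.

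Ratios of related genes within a library do not depend on how libraries are scaled, and are given with no test. HK2 to HK1 was 0.391 and 0.358 in WT ES, 1.47 and 1.49 in WT CT0.4 on day 4 and 2.64 and 3.37 in KO, and in CT1.0 0.7 and 0.694 in WT and 2.65 and 2.43 in KO. In IWP2 on day 4 the ratio was 1.27 and 0.991 in WT and 1.03 and 0.897 in KO. HK2 was thus the more abundant hexokinase of this pair in KO CT cultures and in WT CT0.4 on day 4. It was the less abundant one in ES cells. PFKFB4 to PFKFB3 was 0.605 and 0.458 in WT and 1.58 and 1.37 in KO CT0.4, and 1.5 and 1.32 in KO CT1.0 on day 8 against 0.355 and 0.482 in WT. BNIP3L to BNIP3 went the other way, at 1.46 and 1.64 in WT and 0.356 and 0.432 in KO CT0.4 on day 4, and 2.99 and 2.98 in WT IWP2 on day 8. SLC2A3 to SLC2A1 was 1.89 and 0.598 in WT CT0.4 on day 8, where the lines fell on either side of 1, and 3.04 and 4.88 in KO CT0.4, against 0.103 and 0.0805 in KO IWP2. EGLN3 to EGLN1 was 5.83 and 5.82 in WT CT0.4 on day 8, 4.52 and 4.33 in KO CT0.4 on day 8, and lower in every other group. P4HA2 to P4HA1 stayed under 1 in all libraries and ranged from 0.0485 and 0.0355 in WT CT0.4 on day 4 to 0.571 and 0.554 in KO CT0.4 on day 8.

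**Figure D4:**
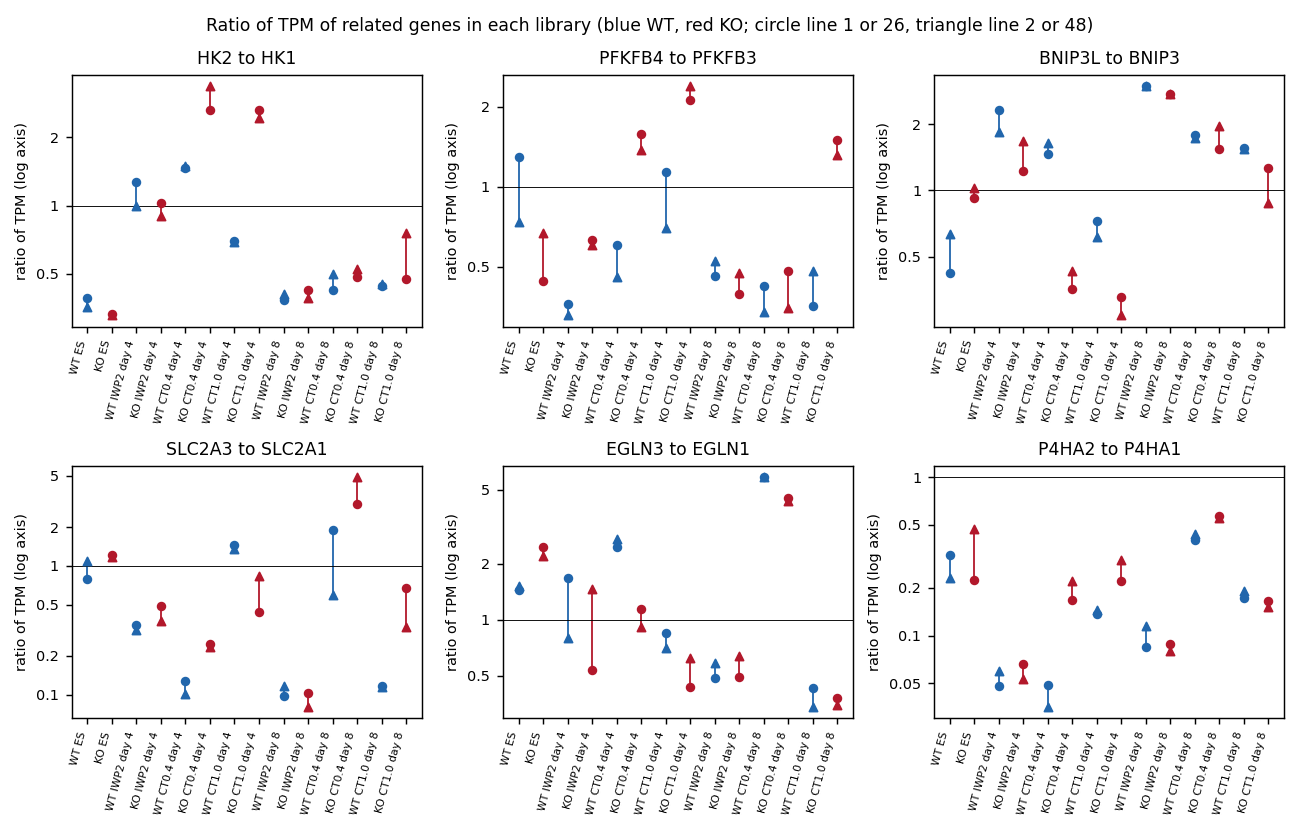
Ratio of the TPM of related genes in each library (vertical axis, log scale, line at 1) by group, WT in blue and KO in red, with a circle for line 1 or 26 and a triangle for line 2 or 48. By group mean, HK2 to HK1 and PFKFB4 to PFKFB3 are highest in KO CT cultures on day 4, and BNIP3L to BNIP3 is lowest there. EGLN3 to EGLN1 is highest in CT0.4 on day 8 in both genotypes, and SLC2A3 to SLC2A1 in KO CT0.4 on day 8. For BNIP3L to BNIP3, WT ES line 1 at 0.421 lies below KO CT0.4 line 48 at 0.432 on day 4. For PFKFB4 to PFKFB3, KO CT1.0 line 26 at 1.5 on day 8 lies above KO CT0.4 line 48 at 1.37 on day 4.

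Outside the 43 genes, 24 further HIF targets, also chosen with earlier results of these data known, were examined in the same comparisons. On day 4, 11 (45.8%) were higher in KO in CT0.4 and 15 (62.5%) in CT1.0, none lower, against 3.67% and 12.4% of all genes tested, with medians of 0.66 and 0.71. STC2, a secreted glycoprotein, rose by 2.38 (SE 0.36, adjusted p = 0.00153) and 2.49, and CXCR4, a chemokine receptor, by 2.36 (SE 0.27, adjusted p = 3.84e-05) in CT1.0. On day 8 in CT1.0 2 (8.33%) were higher and 4 (16.7%) lower, against 4.34% and 9.96% of all genes. Of 15 HIF subunits and regulators, 3 (20%) were higher in CT0.4, against 3.67% of all genes tested, and 3 (20%) were higher in CT1.0, against 12.4%. In CT1.0 1 was lower, with no share of all genes given here. HIF1A, the HIF alpha subunit, was 119 and 131 TPM in WT and 97.4 and 126 in KO in CT0.4, with overlap, and 85.4 and 95.3 in WT and 125 and 120.3 in KO in CT1.0 (log2 0.44, SE 0.12, adjusted p = 0.0182). ARNT, its partner, rose by 0.82 (SE 0.12, adjusted p = 0.00145) and 0.73 (SE 0.12, adjusted p = 0.00084). EPAS1, the second alpha subunit, was under 3 TPM in every library. VHL differed by -0.03 and 0.23 and HIF1AN, an asparagine hydroxylase that blunts HIF, by 0.04 and -0.26, neither called. Transcript levels say nothing of HIF protein, which is set by degradation, and the sources used here do not state the oxygen level of these cultures.

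Marker genes of other cell types are given beside these results, and their part in them was not tested. In CT0.4 on day 4 limma called 0 of 9 neural progenitor, 0 of 6 neuronal and 0 of 7 pluripotency markers tested. It also called 0 of 4 endothelial, 0 of 5 surface ectoderm and 0 of 5 neural crest markers tested. Among all genes tested 3.67% were called higher there, and the share called lower is not given here. Lists this short can hold no call at that share, so these counts do not tell whether cell types differed. At an unadjusted p under 0.05 there were 2 progenitor markers, 1 endothelial marker and none of the others. Summed neuronal markers were 116 to 151 TPM in WT and 91.5 to 137 in KO, and endothelial markers 14.4 to 15.3 and 10.3 to 10.6. In CT1.0 on day 4 the forebrain and midbrain factor OTX2 rose by 3.49, FABP7 and KRT18 rose by 0.84 and 0.75, and SOX3 and NES fell by 1.57 and 0.99 on the log2 scale. The endothelial receptor TEK fell by 1.91 and KDR rose by 0.84 there, while PECAM1 and CDH5, which define endothelium, stayed under 2 TPM in all libraries. In CT1.0 on day 8 summed neuronal markers were 614 to 751 TPM in WT and 139 to 321 in KO, and surface ectoderm markers 45.8 to 54.7 and 78.1 to 100.3. Mesoderm and endoderm markers were near 0 throughout, with a highest single value of 1.44 TPM.

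How far the calls depend on single lines differed between genes. Without each of the 4 lines in turn, 11 of 32 members kept their call throughout in CT0.4 on day 4, namely AK4, BHLHE40, BNIP3, GPI, P4HA1, P4HA2, PDK1, PFKFB4, PFKP, PPFIA4 and VEGFA. In CT1.0 on day 4 it was 18 of 36. Without WT line 1, WT line 2 and KO line 26 the counts were 15, 20 and 21 in CT0.4, and without the WT lines 18 and 20 in CT1.0. Fits on only the 4 libraries compared, in place of all 28, called 0 members in ES, 0 in CT0.4 on day 4, 8 in CT1.0 on day 4 and 0 in CT1.0 on day 8. Averaged over the 3 labels, with each line as 1 replicate, 17 members were higher in KO on day 4 (background: 0.82%) and 0 on day 8 (background: 0%), where 12 had an unadjusted p under 0.05. The day 4 count fell to 7 after median-ratio scaling and to 0 without any 1 line. Its leading members were DDIT4 at 2.10 (SE 0.37, adjusted p = 0.0463), BHLHE40 at 2.08 (SE 0.25, adjusted p = 0.0203) and SLC16A3 at 1.88 (SE 0.32, adjusted p = 0.0431). Gene-level values of 14 members are less certain, since the table also holds 148 pseudogene rows named after them, 62 of GAPDH and 39 of BNIP3 among them, and reads may be split between copies.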

How the data were processed

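Gene-level TPM values were used as the authors deposited them, as a single table of 58219 genes with 2 libraries in each of 14 groups. Per the submitters' processing notes, CASAVA 1.7, Salmon 0.8.2 and hg38 were used, with an annotation release not given in the sources used here. Groups came from the sample labels. Values were taken as log2(TPM + 1). The 27912 genes at 1 TPM or more in at least 2 libraries were fitted with limma 3.58.1 (trended empirical Bayes, R 4.3.3) as 14 group means, with 14 residual degrees of freedom, and p-values were adjusted by Benjamini-Hochberg over all genes tested in each of 30 comparisons, 4 of them added after the data were seen. Line means over the 3 labels were fitted separately, with 6 residual degrees of freedom. The script was tested on simulated data. Promoters and figures used Python 3.11.15 with pandas 2.3.3, numpy 2.4.6 and matplotlib 3.10.9.

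The members and lists were chosen with earlier results of these data known. Genes were named where called with an absolute log2 change of at least 1 (up to 6 each way), with up to 3 abundant uncalled members, 6 members followed in every group, 5 HIF pathway genes and up to 3 called genes of each list. Other members are described by role, and their values were seen before they were chosen. The alternatives tried were no filter, a pseudocount of 0.1, scaling by median ratios, a replicate block, leaving out each line or the 4 WT day 4 CT libraries, and fitting only the 4 libraries compared. Deviations of same-numbered libraries correlated at -0.09 to 0.08 for WT and -0.06 to 0.20 for KO. Among 21 group pairs per genotype, 0 exceeded 0.1 for WT and 8 did for KO. Since not every pair exceeded 0.1, the fit reported has no block.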

Additional observations from a re-analysis of the deposited data

Results flagged for a closer look

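For the members below, the KO minus WT difference under a CT label differed from that under IWP2 of the same day in limma's test of the difference itself, on the log2 scale. For CT0.4 on day 4 the difference was 3.29 for DDIT4 (adjusted p = 0.0142), 3.18 for BHLHE40 (adjusted p = 0.0138), 3.03 for SLC16A3 (adjusted p = 0.0294), 2.65 for ADM (adjusted p = 0.044) and 2.41 for AK4 (adjusted p = 0.0127). It was 2.40 for P4HA2 (adjusted p = 0.017), 2.27 for PDK1 (adjusted p = 0.0073), 1.80 for BNIP3 (adjusted p = 0.014) and 1.78 for VEGFA (adjusted p = 0.00832).

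For CT1.0 on day 4 it was 2.73 for ADM (adjusted p = 0.0185), 2.65 for NDRG1 (adjusted p = 0.0327), 2.41 for BHLHE40 (adjusted p = 0.0271) and 2.33 for INSIG2 (adjusted p = 0.00315). HK2 differed by 2.16 (adjusted p = 0.000361), ENO2 by 2.15 (adjusted p = 0.00128), VEGFA by 2.12 (adjusted p = 0.000849) and SLC2A1 by 1.76 (adjusted p = 0.0205). For CT1.0 on day 8 it was 2.50 for PPFIA4 (adjusted p = 0.00735), 1.97 for AK4 (adjusted p = 0.0238), 1.88 for P4HA1 (adjusted p = 0.000732), 1.46 for ALDOC (adjusted p = 0.025), 1.45 for PDK1 (adjusted p = 0.0372) and 1.16 for PGK1 (adjusted p = 0.018). Of these, only P4HA1 on day 8 kept its call without each line in turn. The day 4 values rest on the 4 WT CT libraries that stood apart in genes detected. Groups of 2 libraries allow no check for a single outlying library.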

How the results depend on the processing

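Counts are of members called, in either direction. In KO against WT, no filter called 7 in ES, against 4, and median-ratio scaling called 7 for the day 4 line means, against 17; the cause was not tested. Fits on only the 4 libraries compared called 0 in ES, 0 in CT0.4 on day 4, 8 in CT1.0 on day 4 and 0 in CT1.0 on day 8, with fewer samples. A pseudocount of 0.1, no filter and median-ratio scaling left every other count within 1.5 times its reported value. The replicate block gave 4, 34, 35 and 25 members for KO against WT in ES, CT0.4 and CT1.0 on day 4 and CT1.0 on day 8, and moved no count by over 1.5 times; whether the numbers pair the samples is not settled, with 8 of 21 pairs of KO groups and 0 of 21 of WT groups correlated over 0.1. Of 204 values of named members, 190 kept their direction and call under median-ratio scaling and 14 lost the call.

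With 1 line left out, the lone library is assumed to vary like the other groups. KO against WT then gave 0 to 5 members in ES, 15 to 24 in CT0.4 and 18 to 29 in CT1.0 on day 4, 5 to 17 in CT1.0 on day 8, and 0 to 0 for the day 4 line means. Day 4 against ES gave 21 to 32 in WT IWP2, 22 to 33 in WT CT0.4, 14 to 21 in WT CT1.0, 21 to 23 in KO IWP2, 27 to 31 in KO CT0.4 and 27 to 31 in KO CT1.0. WT day 8 against day 4 gave 0 to 10 in IWP2, 9 to 23 in CT0.4 and 4 to 19 in CT1.0. WT CT against IWP2 gave 0 to 7 and 4 to 18 for CT0.4 and CT1.0 on day 4, and 2 to 9 and 1 to 7 on day 8. The test of the KO effect gave 1 to 10 and 2 to 11 on day 4, and 0 to 0 and 1 to 3 on day 8. KO CT against KO IWP2 gave 6 to 25 and 23 to 32 on day 4, and 5 to 9 and 11 to 17 on day 8. DDIT4 in KO IWP2 on day 4 against KO ES changed sign without KO line 26, to -0.16 (adjusted p = 0.901 in limma), and was 2.61 without KO line 48. TPM keeps no read depth, so counting error is unknown.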

Other observations

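Genes of the neighbouring pathways of carbon metabolism were examined in the same comparisons, in which 3.67%, 12.4% and 4.34% of all genes tested were called higher in CT0.4 on day 4, CT1.0 on day 4 and CT1.0 on day 8, and 9.96% were called lower in the last. The shares called lower on day 4 are not given here, so the lower counts of that day have nothing to be read against. Of 26 further genes of glycolysis and pyruvate use that were tested, 2 were higher and 2 lower in KO CT0.4 on day 4, and 4 higher and 1 lower in KO CT1.0. PGM1, which links glycogen to glycolysis, rose by 0.91 in CT0.4, and PFKFB2, a further relative of PFKFB4, by 0.95 in CT1.0. PDHB, a subunit of pyruvate dehydrogenase, fell by 0.36 and 0.40 on the log2 scale. Of 15 citric acid cycle genes tested, 0 were called in CT0.4 by limma (3 at an unadjusted p under 0.05) and 2 were lower in CT1.0, SDHC at -0.70 and FH at -0.40. On day 8 in CT1.0, 5 (33.3%) were lower and 1 higher, with SUCLG2 at 0.71 and OGDH at -0.45. Of 7 pentose phosphate genes, 0 were called in CT0.4 by limma (2 at an unadjusted p under 0.05), 1 was higher in CT1.0 on day 4 and 3 (42.9%) were lower in CT1.0 on day 8.

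DDIT4 and ADM are also known as stress genes. Of 9 genes of the integrated stress response, 1 was higher and 1 lower in both CT cultures on day 4: ATF3 at 0.83 and 1.52, and ATF4 at -0.54 and -0.38. Among all genes tested 3.67% and 12.4% were called higher in these cultures, and the share called lower is not given here. In CT1.0 on day 8 limma called 0, and 2 had an unadjusted p under 0.05.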
